A study of Mus musculus with 13 samples.

Results

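Dorsal-type pyramidal neurons of hippocampal area CA1 were picked out of single-nucleus RNA libraries of whole frozen mouse hippocampus by a rule on 12 genes. A barcode had to hold at least 500 genes and at most 5% mitochondrial molecules (UMIs, each one captured transcript). It had to carry at least 2 of the CA1 genes Fibcd1, Gm2115, Gm10754 and Mpped1 with at least 4 UMIs between them, and fewer than 2 UMIs of the inhibitory genes Gad1 and Gad2. Of these CA1 nuclei, those with more UMIs of Spink8, Wfs1 and Stac than of Pde11a, Cpne7 and Dcn were taken as dorsal-type, and those with fewer as ventral-type. The rule found 2391 dorsal-type nuclei among 105427 retained barcodes (2.27%), beside 7585 ventral-type nuclei and 1052 ties that were left out. The nuclei were chosen by the measured counts of these 12 genes, so what it says about these genes is a description and was not tested. At the edge of the rule, 184 dorsal-type nuclei held exactly 4 UMIs of the CA1 genes and 131 otherwise fitting barcodes held 3. A lead of only 1 UMI over the ventral genes placed 750 of the 2391 nuclei.

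The libraries came from 13 female hybrid mice, written C3HB6F1 in the sample labels and C3B6F1 in the series text. Young mice fed ad libitum were 5 months old (n = 3), and all other mice were 24 months old. Old mice were fed ad libitum (n = 3), restricted from 20 months of age (acute restriction, n = 3) or restricted from 5 months of age (long-term restriction, n = 4). Replicates carry the numbers 1, 2 and 3 in the young and acute groups, 1, 2 and 4 in the old ad libitum group and 1 to 4 in the long-term group. No label says how animals were housed or pooled, so p-values measure the spread between these libraries, taken as 1 mouse each.

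Pyramidal neurons of CA1 receive Schaffer collateral input from CA3 and send the main output of the hippocampus to the subiculum and cortex. Their gene expression is graded along the long axis of the hippocampus and between the superficial and deep sublayers of the cell layer. Dorsal CA1 is known for its place cells and for its part in spatial memory, and calcium handling and excitability of these neurons are long studied themes of brain ageing. A nuclear library reads mostly unspliced RNA of the nucleus, so it reports transcription and nuclear retention more than the cytoplasmic pool.

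Dorsal-type nuclei per mouse ran from 26 (long-term mouse 4) to 353 (young mouse 3), and their summed UMIs from 332995 to 4390794. Median UMIs per nucleus were 6782 to 11679 in young mice and 12054 to 21101 in old ad libitum mice, so depth separated these groups without overlap. Young mouse 2 (65 nuclei, 441762 UMIs) and long-term mouse 4 had the smallest sums and stood apart from the other libraries on the first and second principal components. Libraries numbered 1 shared deviations from their group means across groups (pairwise r of 0.25 to 0.54 across genes in 6 pairs), while the 10 other pairs of equal number lay between -0.06 and 0.17. Pairs of unequal number across groups reached 0.31 (acute mouse 2 with old ad libitum mouse 4), so the ranges were not fully apart. The counts of calls between groups are therefore given from a fit with group alone and from a fit with an added term for the 4 libraries numbered 1, and single genes from the fit that is stated. The comparison with ventral-type nuclei has the mouse as a block and was also run without those libraries. A high doublet score fell on 236 of the 2391 nuclei (9.87%), and no pair of libraries shared more than 1 barcode among these nuclei.

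The marker genes gave the label a mixed result. Stac was detected in 2085 of the nuclei (87.2%) and Gm2115 in 2182 (91.3%), whereas Wfs1, Spink8 and Fibcd1 were detected in 40.4%, 33.4% and 30.8%. Stac without any UMI of Wfs1 or Spink8 placed 961 nuclei (40.2%) on the dorsal side. Over the 13 mice, Stac had 279 CPM (the usual depth-scaled count) in dorsal-type against 49.9 CPM in ventral-type nuclei, Wfs1 49.7 against 11.97 CPM and Spink8 33.9 against 16.7 CPM, which the rule itself sets. Stac also separated the ages, at 142, 168 and 221 CPM in the dorsal-type nuclei of young mice and between 275 and 367 CPM in the 10 old mice. Spink8 separated them the other way, at 43.1, 56.6 and 46.0 CPM in young and between 16.5 and 40.2 CPM in old mice. Wfs1 overlapped, at 120, 67.9 and 44.3 CPM in young and between 25.1 and 71.3 CPM in old mice. In ventral-type nuclei Stac overlapped between the ages, at 22.6, 26.8 and 54.1 CPM in young and between 41.7 and 85.7 CPM in old mice. Within the dorsal-type nuclei, which were chosen by these counts, Stac was thus higher and Spink8 lower in old mice. How far age changed which nuclei were chosen was not tested. Of the listed dorsal CA1 markers that the rule used only to find CA1, Gm2115 went with the label and Fibcd1 against it. Gm2115 averaged 313 CPM in dorsal-type and 176 CPM in ventral-type nuclei and was higher on the dorsal side in 13 of 13 mice. Fibcd1 averaged 32.2 CPM in dorsal-type and 48.7 CPM in ventral-type nuclei and was higher on the dorsal side in 2 of 13 mice. With every nucleus thinned to 5000 UMIs, the median share of nuclei with Fibcd1 was 16.8% on the dorsal and 23.7% on the ventral side (29.2% and 35.5% before thinning). The set is therefore best read by its rule, as CA1 nuclei led by Stac, Wfs1 and Spink8.

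Markers outside the rule were split in the same way. Pou3f1, a POU transcription factor of CA1, was higher in dorsal-type nuclei of all 13 mice by 0.78 ± 0.36 (SD) on the log2 scale, and Man1a, a Golgi mannosidase, in 12 of 13 mice by 0.42 ± 0.29. Zbtb20, a transcription factor of hippocampal pyramidal neurons, was at 0.13 ± 0.45 and was higher on the dorsal side in 8 of 13 mice. Of 5 genes listed for ventral CA1, Nr2f2, a nuclear receptor of ventral hippocampus, was lower in 13 of 13 mice (-2.87 ± 0.86, SD), and Htr2c, a serotonin receptor, was at -1.18 ± 0.60 and higher in 1 of 13. Grp, the gastrin-releasing peptide, was at -1.16 ± 1.14 and Lypd1 at -0.34 ± 0.34, higher in 2 and 1 of 13 mice. The transcription factor Etv1 did not separate the sides, at 191 against 216 CPM (-0.23 ± 0.59) and higher in 6 of 13. Ndst4, a heparan sulfate sulfotransferase of deep CA1, was higher in 13 of 13 mice, at 594 against 235 CPM. Calb1, the calcium buffer calbindin of superficial CA1, was lower in 13 of 13, at 22.2 against 38.1 CPM. The excitatory markers Slc17a7, Neurod6, Neurod2, Camk2a and Nrgn summed to between 1453 and 2000.2 CPM, and the inhibitory markers to between 5.1 and 17.5 CPM. Glial markers were low but present, with 52.8 to 199 CPM over 6 oligodendrocyte genes and 4.5 to 41.8 CPM over 4 astrocyte genes.

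**Figure D1:**
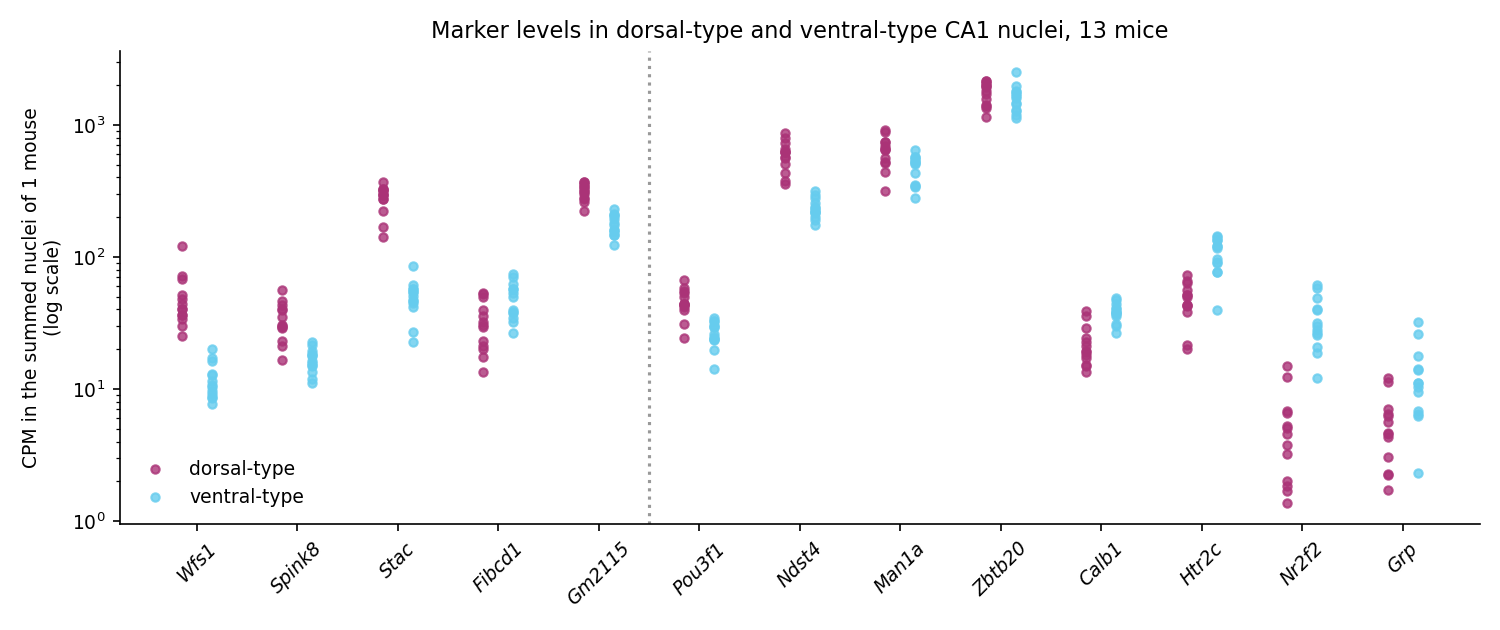
CPM of 13 marker genes (log axis) in the summed dorsal-type (purple) and ventral-type (blue) nuclei of each of 13 mice, 1 point per mouse. Genes left of the dotted line were used to choose the nuclei. Wfs1, Spink8, Stac and Gm2115 were higher on the dorsal side in 13 of 13 mice, Fibcd1 in 2 of 13.

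A second gene pair split the set. Fn1, which encodes fibronectin, and Tshz2, a zinc finger factor, mark neurons of the subiculum, the region next to CA1, and 418 of the 2391 nuclei (17.5%) held at least 3 UMIs of them, while 1882 held none. Ntng2, the third gene listed for the subiculum, went the other way, at 32.5 CPM in dorsal-type against 71.9 CPM in ventral-type nuclei and higher in 0 of 13 mice. Ntng2 was at 37.2 CPM in the marked against 31.1 CPM in the other dorsal-type nuclei, so the mark rests on Fn1 and Tshz2 alone. These marked nuclei carried little Fibcd1 (4.82 against 40.5 CPM in the other dorsal-type nuclei) and little Zbtb20 (399 against 2191 CPM). Calb1 was at 6.47 against 27.3 CPM in them. Stac, in contrast, was higher in marked nuclei, at 412 against 234 CPM, as were Ndst4 at 947 against 481 CPM and the transcription factor Etv1 at 510 against 86.9 CPM. The age comparisons below are given with and without them as counts of genes that passed, and for most genes described singly.

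The share of marked nuclei differed between mice. It was 16.0%, 10.8% and 7.37% in young mice, 32.8%, 15.8% and 7.32% in old ad libitum mice, 24.2%, 2.66% and 27.8% in acute restriction and 28.7%, 30.5%, 28.8% and 26.9% in long-term restriction, in the order of the replicate numbers. The 4 long-term mice lay between 26.9 and 30.5%, with acute mouse 3 inside that range and old ad libitum mouse 1 above it. In ventral-type nuclei the same share was 11.7% in all. The dorsal-type share minus the ventral-type share averaged 8.99 ± 6.67 percentage points (SD, n = 10) in old mice, above 0 in 9 of 10. In young mice it averaged -4.99 ± 2.51 (SD, n = 3) and was above 0 in none. The difference of 13.98 points gave p = 0.0035 in a two-sided exact permutation test over 286 assignments, the smallest p these numbers of mice allow, and this comparison was chosen after seeing the data. The old side mixes the diets, and the 3 old ad libitum mice alone were at -1.73, 11.3 and 1.70 points against -3.54, -7.89 and -3.55 in the young mice. Stac, a gene of the rule, was higher in marked nuclei (412 against 234 CPM) and in the dorsal-type nuclei of every old mouse. Stac counts also helped to set the side on which a nucleus fell, so these values come from nuclei chosen by them. In ventral-type nuclei Stac overlapped between the ages. Whether the choice by the rule, the tissue taken or the neurons differed was not tested.

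**Figure D2:**
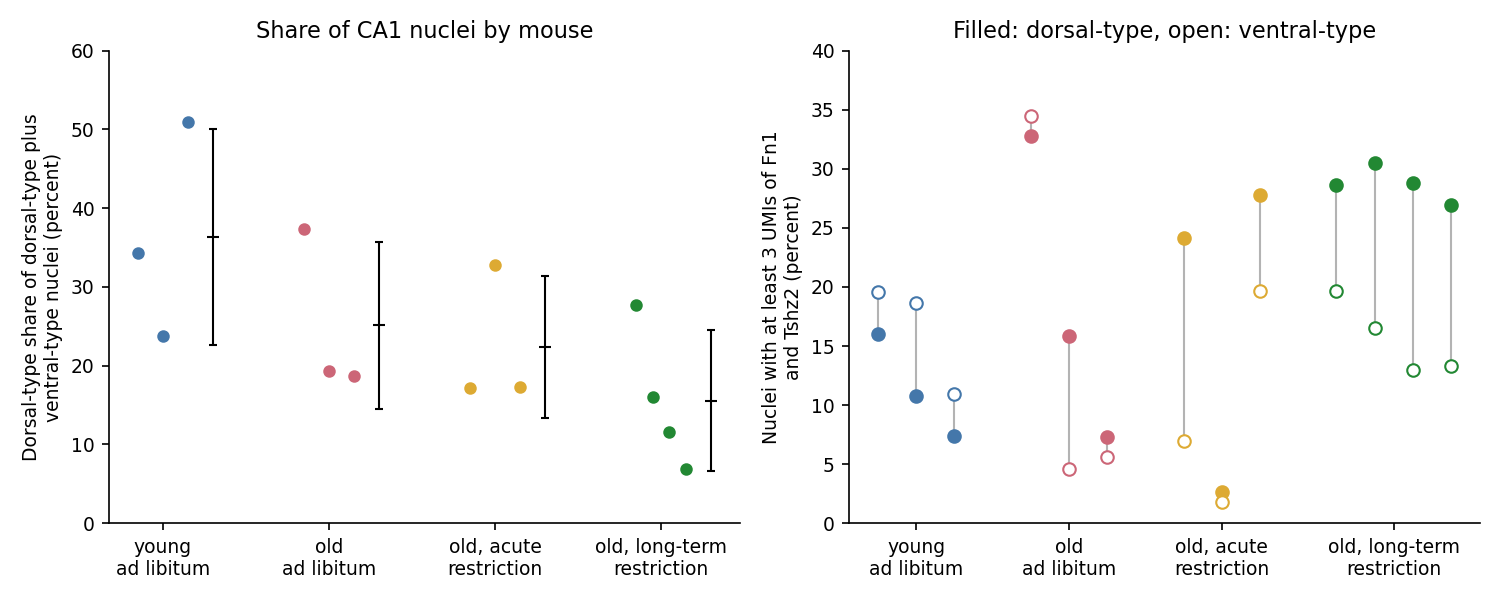
Left, the percent of dorsal-type plus ventral-type nuclei that were dorsal-type, 1 point per mouse with the group mean and SD in black; the young mice lie between 23.7 and 51.0% and the long-term mice between 6.86 and 27.7%. Right, the percent of nuclei with at least 3 UMIs of Fn1 and Tshz2 in dorsal-type (filled) and ventral-type (open) nuclei of each mouse, joined by a line.

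Beyond the rule's genes, dorsal-type and ventral-type nuclei of the same mouse differed in many genes, given here as a description because the rule splits nuclei on this axis. Of 6487 genes of at least 20 CPM on either side, 397 (6.12%) were higher in dorsal-type nuclei of all 13 mice and 891 (13.7%) lower. The largest positive mean log2 differences were in Plekhg1, a guanine nucleotide exchange factor (61.4 against 15.6 CPM), and in 3 long noncoding RNAs, among them 4921539H07Rik, which stood at 306 CPM in dorsal-type, 78.8 CPM in ventral-type and 23.2 CPM in all other retained barcodes. They were followed by Osbpl3, an oxysterol-binding protein (90.2 against 26.2 CPM), and Robo3, an axon guidance receptor (21.2 against 6.42 CPM). Bcan, the perineuronal proteoglycan brevican, was at 58.3 against 19.3 CPM. Among the largest negative differences were those of Cpne2, Ndrg1, Gpc3, a glypican, and Adra1a, an alpha1 adrenergic receptor, which were at 1.22, 1.41, 1.83 and 4.28 CPM in dorsal-type nuclei against 29.2, 23.3, 32.7 and 43.6 CPM in ventral-type nuclei.

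Synaptic gene lists are read beside the 6.12% of all genes higher and 13.7% lower in all mice. Of 21 measured genes for calcium/calmodulin kinase II and the postsynaptic scaffold, 13 were higher in dorsal-type nuclei of all mice and 3 lower. Homer1, a scaffold that links glutamate receptors to calcium stores, was at 393 against 241 CPM, and Ppp3ca, the catalytic subunit of calcineurin, at 2681 against 2072 CPM. Camk2d went the other way, at 44.0 against 108 CPM. Of 20 glutamate receptor genes, 5 were higher in dorsal-type nuclei of all mice and 9 lower. The AMPA subunits Gria2 and Gria3 and the NMDA subunits Grin1, Grin2a and Grin2b were higher in dorsal-type nuclei of all 13 mice, with Grin2a at 4309 against 3101 CPM. The kainate subunits Grik2, Grik3 and Grik4 and the metabotropic genes Grm3 and Grm7 were lower in all 13, with Grik4 at 48.6 against 215 CPM. So were the AMPA subunit Gria4, at 168 against 486 CPM, and the NMDA subunit Grin3a, at 48.4 against 134 CPM. The kainate subunit Grik1 was at 83.5 against 19.4 CPM and higher in 12 of 13 mice. Of 10 GABA-A subunits 1 was higher and 2 lower in all mice, of 28 adhesion genes 4 and 7, and of 22 release genes 2 and 7.

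Channel and receptor genes for other inputs differed as well. The potassium channel Kcnh7 was at 2565 against 1201 CPM and Kcnd2, which carries the dendritic A-type current, at 5074 against 3462 CPM, both higher in dorsal-type nuclei of all mice. Cacna1c, the L-type calcium channel Cav1.2, was at 351 against 740 CPM and Kcnn3, a calcium-activated potassium channel, at 23.8 against 61.4 CPM, both lower in all mice. Nr3c2, the mineralocorticoid receptor, was at 1414 against 935 CPM, and Ntrk2, the receptor of brain-derived neurotrophic factor, at 726 against 433 CPM. Of 7 immediate early genes of at least 20 CPM, 3 were higher in dorsal-type nuclei of all mice, beside 6.12% of all genes, and 0 were lower in all. Nr4a1 was at 72.3 against 28.5 CPM and Arc at 24.5 against 8.48 CPM, each higher in 13 of 13 mice. Jun, which lay below 20 CPM, went the other way, at 7.28 against 16.1 CPM and lower in 13 of 13. In nuclei thinned to 5000 UMIs, the median share with Arc was 8.87% against 3.50%, and with Nr4a1 28.9% against 10.4% (22.6% against 7.66% and 45.2% against 19.7% before thinning).

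Among dorsal-type nuclei without the Fn1 and Tshz2 mark, the variance over the mean of thinned counts was taken as the median over mice. It was largest for Malat1, a nuclear noncoding RNA (22.3), Dpp10, a potassium channel auxiliary subunit (19.9), and Lrrtm4, a synaptic adhesion protein (15.7). Marked nuclei, in which Lrrtm4 was at 6571 CPM against 653 CPM in other nuclei, did not enter these values. Tenm3, a teneurin that guides connections between CA1 and the subiculum, followed at 11.7 and Kcnip4 at 9.36, against a median of 1.04 over 5756 genes. Of 1946 thinned nuclei without the Fn1 and Tshz2 mark, 1171 (60.2%) carried Ndst4 and 233 (11.97%) carried Calb1. Ndst4 was found in 44.6% of the nuclei with Calb1 and in 62.3% of the 1713 without it. The deep and superficial markers thus overlapped in 104 nuclei and did not divide the set cleanly at this depth.

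The share of nuclei that were dorsal-type was compared over the 4 groups. Dorsal-type nuclei made up 36.3 ± 13.8% (SD, n = 3) of dorsal-type plus ventral-type nuclei in young mice and 25.1 ± 10.6% (n = 3) in old ad libitum mice. They made up 22.4 ± 9.02% (n = 3) in acute and 15.6 ± 8.93% (n = 4) in long-term restriction. The single values were 34.3, 23.7 and 51.0% in young mice, 37.3, 19.3 and 18.7% in old ad libitum mice, 17.1, 32.8 and 17.3% in acute restriction and 27.7, 16.0, 11.6 and 6.86% in long-term restriction. The groups overlapped, and an exact permutation test of F over 1201200 assignments of the log2 odds gave p = 0.141 (p = 0.0904 without marked nuclei and p = 0.0505 without long-term mouse 1). The lowest adjusted p of the 4 pairs of groups was 0.419 (exact permutation), but no pair could have passed, since 3 against 3 mice allow no p under 0.1 and 3 against 4 none under 0.0571. Of all retained barcodes, the shares were 2.74 ± 1.93% (young), 2.69 ± 0.77% (old ad libitum), 2.72 ± 1.65% (acute) and 1.52 ± 1.23% (long-term), with an exact p = 0.584. The 95% Wilson interval of the lowest single share, 0.329% in long-term mouse 4, was 0.225 to 0.482% and covers counting error only.

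The effect of age on ad libitum diet was asked by comparing 3 old with 3 young mice. With group alone, edgeR called none of 12362 tested genes at an adjusted p below 0.05 (0%), although 1480 genes (12%) had an unadjusted p below 0.05 and the groups did not overlap in 19.6% of genes. DESeq2 called 48 genes (20 higher, 28 lower). With the term for libraries numbered 1, edgeR called 128 genes (1.04%), 23 upward (0.186%) and 105 downward (0.849%) with age. In the same fit without marked nuclei the calls were 217 (56 higher, 161 lower). Adding the 7 restricted mice to the old side (10 old against 3 young, diets mixed) gave 60 calls with group alone (0.485%; 38 higher, 0.307%, and 22 lower, 0.178%) and 583 with the term (4.72%; 215 higher, 1.74%, and 368 lower, 2.98%). At an unadjusted p below 0.05 there were 2148 genes (17.4%) with group alone. Of the 60 calls with group alone, 17 remained among 33 calls without marked nuclei, and all 60 kept their direction. All age comparisons are of sets chosen partly by Stac and Spink8. In the dorsal-type nuclei of every old mouse Stac was higher, and Spink8 lower, than in every young mouse. Genes named below as rising or falling passed in the fit that is stated.

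Lpp, a LIM domain protein of focal adhesions (chromosome 16, 24393507 to 24992578, GRCm38), stood at log2 CPM 7.28, 6.91 and 7.26 in the young mice and between 7.55 and 7.97 in the 10 old mice. Every old mouse lay above every young mouse, which held for 3.95% of all genes in either direction. Over the 10 old mice Lpp rose by 0.64 ± 0.10 (SE) on the log2 scale with group alone (edgeR adjusted p = 0.0193), and without marked nuclei the value was 0.48 (adjusted p = 0.095).

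Klhl32, a kelch protein of the family that serves cullin 3 ubiquitin ligases (chromosome 4, 24612554 to 24851124), was at 6.54, 6.68 and 6.78 in young mice, at 7.47, 7.44 and 7.33 in old ad libitum mice and between 7.17 and 7.46 in the restricted mice. It rose by 0.76 ± 0.13 in old against young ad libitum mice (edgeR with the term, adjusted p = 0.00601; with group alone, adjusted p = 0.12), and by 0.66 without marked nuclei (with the term, adjusted p = 0.0141).

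Htr2c, a serotonin receptor gene (chromosome X, 146962513 to 147197277), was at log2 CPM 4.43, 5.27 and 4.38 in young mice, 5.89, 5.69 and 5.45 in old ad libitum mice, 6.20, 5.76 and 5.42 in acute and 5.80, 5.40, 6.06 and 6.01 in long-term restriction. All 10 old mice lay above all 3 young mice, young mouse 2 being the nearest. Htr2c rose by 1.24 ± 0.21 over all old mice with group alone (edgeR adjusted p = 0.0199). Without marked nuclei it was at 1.40 with group alone (edgeR adjusted p = 0.0898) and rose by 1.44 in the fit with the term (adjusted p = 0.0226). Htr2a, another serotonin receptor gene (chromosome 14, 74640840 to 74709494), was at 4.19, 3.58 and 3.65 in young mice and at 4.80, 5.03 and 5.39 in old ad libitum mice. It rose by 1.22 ± 0.27 in old against young ad libitum mice in the fit with the term (edgeR adjusted p = 0.0258; 1.44 and 0.00513 without marked nuclei), while long-term restricted mice were at 4.39, 3.39, 4.16 and 3.26, a range that overlaps the young mice. Htr2a was low in marked nuclei, as given below with the long-term comparison.

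Other named genes rose over all old mice. Arhgap26 and Arhgap10, both GTPase-activating proteins, rose by 0.70 ± 0.13 and 1.04 ± 0.19 over all old mice with group alone (edgeR adjusted p = 0.0248 for each). Srgap1, a GTPase regulator downstream of Slit and Robo, rose by 0.71 ± 0.13 (adjusted p = 0.0326). Kcnip3, a calcium sensor that binds Kv4 channels, rose by 0.93 ± 0.18 (adjusted p = 0.0353) and Snap25, a membrane fusion protein of synaptic vesicles, by 0.50 ± 0.11 (adjusted p = 0.0473). In ad libitum mice alone Snap25 differed by 0.27 ± 0.13 and did not pass (edgeR with the term, adjusted p = 0.308). Without marked nuclei none of these 5 passed with group alone, where Arhgap26 was at 0.61, Arhgap10 at 0.97, Srgap1 at 0.78, Kcnip3 at 0.87 and Snap25 at 0.45 (edgeR adjusted p between 0.052 and 0.0968). With the term all 5 passed without them (adjusted p between 0.0152 and 0.0326). Lin28b, an RNA-binding protein that blocks let-7 maturation, rose by 1.03 ± 0.18 in old against young ad libitum mice in the fit with the term (edgeR adjusted p = 0.00672; 1.14 and 0.00343 without marked nuclei).

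Plcb4, a phospholipase C of G protein signalling, depended on the marked nuclei. It was at log2 CPM 3.60, 3.28 and 3.11 in the young animals, against 5.49, 4.78 and 4.02 for old ad libitum mice, a rise of 1.68 ± 0.33 in the fit with the term (edgeR adjusted p = 0.0197). Without marked nuclei the change was 0.13 (adjusted p = 0.947). Fras1, an extracellular matrix protein, and Sorcs1, a sorting receptor, rose by 1.24 ± 0.22 and 1.38 ± 0.27 in the fit with the term (edgeR adjusted p = 0.0143 and 0.0389). Without marked nuclei they did not pass, at 1.40 (adjusted p = 0.144) and 1.91 (adjusted p = 0.177), and both had higher levels in marked nuclei, at 273 against 106 CPM and 428 against 111 CPM.

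On the falling side, Olfm1, a secreted olfactomedin protein of synapses (chromosome 2, 28192992 to 28230736), was at log2 CPM 7.49, 6.96 and 6.86 in young, 6.58, 6.57 and 6.65 in old ad libitum, 6.50, 6.38 and 6.35 in acute and 6.22, 6.45, 6.08 and 5.88 in long-term mice. It fell by 0.75 over all old mice (SE 0.13, edgeR with group alone, adjusted p = 0.0199). Selenow, a small selenoprotein (chromosome 7, 15917208 to 15922402), was at 6.61, 6.65 and 6.43 in young and between 4.83 and 5.87 in old mice, and fell by 0.91 (SE 0.15, adjusted p = 0.0193). Without marked nuclei Olfm1 was at -0.62 and Selenow at -0.80 with group alone (edgeR adjusted p = 0.068 and 0.0609), and both passed with the term (adjusted p = 0.00995 and 0.00319). In both genes every old mouse lay below every young mouse.

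Slc30a3, the transporter ZnT3 that loads zinc into glutamatergic vesicles (chromosome 5, 31086106 to 31108237), was at 5.11, 5.18 and 5.09 in young mice and between 3.23 and 4.81 in old mice. It fell by 0.93 (SE 0.19, edgeR with group alone, adjusted p = 0.0393). Eif1b, a translation initiation factor, fell by 1.25 (SE 0.21, adjusted p = 0.0199), C1qtnf4, a secreted C1q and tumour necrosis factor related protein, by 0.88 (SE 0.16, adjusted p = 0.0248), and Selenot, a selenoprotein of the endoplasmic reticulum, by 0.85 (SE 0.17, adjusted p = 0.0351). B3galt2, a galactosyltransferase that lies opposite Cdc73, fell by 1.03 (SE 0.20, adjusted p = 0.0351). Without marked nuclei and with group alone, Slc30a3, Eif1b and B3galt2 passed (edgeR adjusted p = 0.0489, 0.0307 and 0.0258), and C1qtnf4 and Selenot did not (adjusted p = 0.052 and 0.0692). With the term all 5 passed without them (adjusted p between 0.00169 and 0.0158).

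**Figure D3:**
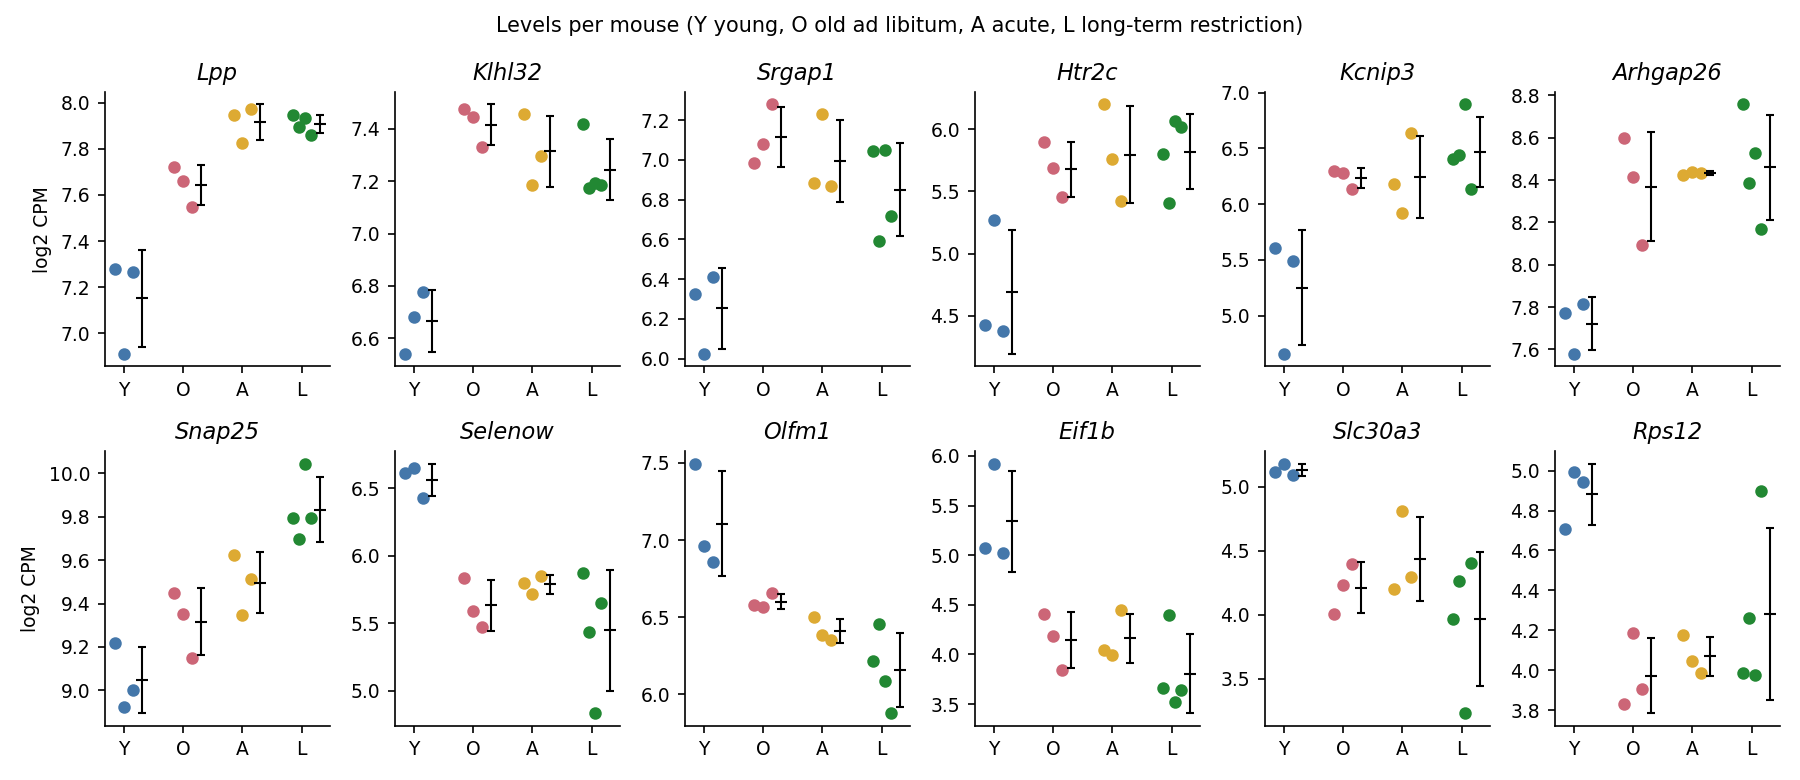
Log2 CPM of 12 genes in the summed dorsal-type nuclei of each mouse, 1 point per mouse, with the group mean and SD in black (Y young, O old ad libitum, A acute and L long-term restriction). The top row and Snap25 rose, and the rest of the bottom row fell. These calls are over all old mice with the diets mixed, and for Klhl32 in old against young ad libitum mice. In Klhl32 the 3 young mice lie at or below 6.78 and the 10 old mice at or above 7.17.

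A further set fell in old against young ad libitum mice only when libraries numbered 1 had their own term. P2ry14, the receptor of UDP-glucose, was at 6.83, 7.84 and 7.77 in young and 6.11, 5.98 and 6.46 in old ad libitum mice and fell by 1.28 (SE 0.18, edgeR with the term, adjusted p = 0.0018; group alone, adjusted p = 0.277). Slc24a5, a sodium, calcium and potassium exchanger, fell by 1.27 (SE 0.18, adjusted p = 0.0018), Gsdme, a pore-forming gasdermin, by 1.08 (SE 0.17, adjusted p = 0.00272), and Flrt3, a leucine-rich adhesion protein, by 1.28 (SE 0.21, adjusted p = 0.00552). Without marked nuclei these 4 genes passed in the same fit (edgeR adjusted p between 0.000876 and 0.00661). In the acute group the library numbered 1 was the lowest of these 4 genes, as it was in the long-term group and among the young mice. Each of the 4 lies opposite another gene in the annotation (Med12l, Myef2, Mpp6 and Macrod2), and whether counting used strand is not given in the sources used here, so reads of these partners cannot be told apart.

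The number of age calls moved with a depth covariate and with single libraries. With the median UMIs per nucleus as a covariate no gene passed in either fit or comparison, although all 60 genes called over all old mice with group alone kept their direction. With the libraries of young mouse 2 and long-term mouse 4 both left out the calls over all old mice were 0 with group alone and 130 with the term. Leaving out 1 library gave 0 to 221 calls over all old mice with group alone. The lowest were 0 without old ad libitum mouse 2, 1 without young mouse 2, 31 without old ad libitum mouse 1 and 34 without long-term mouse 2, and the highest 109, 163 and 221 without young mouse 3, acute mouse 2 and young mouse 1. With the term the calls were 149, 295 and 298 without young mice 2, 1 and 3, 299 without acute mouse 1 and 339 without old ad libitum mouse 2, and at most 650. In old against young ad libitum mice with the term they were 5, 29 and 219 without old ad libitum mice 2, 4 and 1, 46, 50 and 267 without young mice 2, 3 and 1, and 238 without long-term mouse 3. With group alone they were 112 without young mouse 1 and 5 without long-term mouse 3.

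Gene lists for neuronal function are read against the median of all tested genes, -0.02 in old against young ad libitum mice and -0.04 over all old mice. With group alone over all old mice, where 0.307% of all tested genes rose, 21 of 23 tested glutamate receptor genes had a positive change (median 0.28) and 1 rose. Of 24 voltage-gated potassium and HCN genes, 17 were positive (median 0.12) and Kcnip3 rose. The fit with the term for libraries numbered 1 called 1.74% of all tested genes as higher. With group alone 0 genes passed in the GABA-A, calcium, sodium channel and adhesion lists (3, 9, 3 and 9 at an unadjusted p below 0.05). With the term Gabrg3 and Gabrb2 rose among 12 GABA-A subunits, and Cacna1c and Cacnb4 among 30 genes of calcium channels and stores (group-alone medians 0.10 and 0.09). Scn1a rose among 8 sodium channel genes, Tenm4 among 30 adhesion genes, and Snap25 and Sv2b among 25 release genes. Without marked nuclei Gabrg3, Cacnb4 and Sv2b did not pass in that fit (edgeR adjusted p between 0.0941 and 0.162). For kinase II and the scaffold, 0 of 22 genes passed in either fit (6 at an unadjusted p below 0.05 with group alone). Once the trend of expression with gene span was removed, the medians of these lists lay between -0.07 and 0.11.

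Translation and respiration genes lay on the falling side. Of 82 tested cytosolic ribosomal protein genes, 0 had a positive change over all old mice, with a median of -0.65, and 53 had an unadjusted p below 0.05, beside 17.4% of all tested genes. With group alone 1 of them fell, beside 0.178% of all genes, and with the term 24 fell, beside 2.98% (no gene of the list rose in either). Without marked nuclei 17 of these 24 passed with the term and 0 with group alone (edgeR adjusted p at least 0.0606). Rps12 was at log2 CPM 4.71, 4.99 and 4.94 in young mice and between 3.83 and 4.90 in old mice, and only long-term mouse 4 reached the young range. It fell by 0.81 over all old mice (SE 0.18, edgeR with the term, adjusted p = 0.0125). In old against young ad libitum mice the list's median was -0.48, 0 genes passed with group alone (21 at an unadjusted p below 0.05), and with the term 1 did, Rps12, which fell by 0.91 (SE 0.22, edgeR with the term, adjusted p = 0.0425). Of 49 oxidative phosphorylation genes, 44 had a negative change over all old mice (median -0.56) and 8 fell with the term, among them Cox8a, Cox7c and Ndufa4, while 0 passed with group alone (25 at an unadjusted p below 0.05). Of these 8, Cox7a2 and Cox5a did not pass with the term without marked nuclei (edgeR adjusted p = 0.0504 and 0.0531). Cox7c, Atp5b and Atp5g3 did (adjusted p = 0.0146, 0.0242 and 0.0432). Removing the gene span trend brought the medians to -0.22 and -0.23. Ribosomal protein genes have many processed pseudogenes and short transcripts, so their counts are uncertain.

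The promoters of 3 of the 24 ribosomal genes that fell over all old mice in the fit with the term are shown. With group alone Rps10, Rps7 and Rps12 did not pass (edgeR adjusted p = 0.0721, 0.0834 and 0.051). The windows run from 250 bases before to 50 bases after the RefSeq start (GRCm38.p6, printed along the gene), and capitals mark CCGGAA or its reverse complement TTCCGG, the core letters of ETS factor sites. Rps10 is at chr17:27635195-27635494 (minus strand), Rps7 at chr12:28635904-28636203 (minus strand) and Rps12 at chr10:23787160-23787459 (minus strand).
Rps10: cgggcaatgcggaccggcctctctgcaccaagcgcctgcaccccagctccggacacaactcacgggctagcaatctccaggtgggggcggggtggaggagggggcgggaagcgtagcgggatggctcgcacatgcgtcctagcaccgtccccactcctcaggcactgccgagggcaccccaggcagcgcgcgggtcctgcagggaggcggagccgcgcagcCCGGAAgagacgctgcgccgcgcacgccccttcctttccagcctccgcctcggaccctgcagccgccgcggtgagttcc
Rps7: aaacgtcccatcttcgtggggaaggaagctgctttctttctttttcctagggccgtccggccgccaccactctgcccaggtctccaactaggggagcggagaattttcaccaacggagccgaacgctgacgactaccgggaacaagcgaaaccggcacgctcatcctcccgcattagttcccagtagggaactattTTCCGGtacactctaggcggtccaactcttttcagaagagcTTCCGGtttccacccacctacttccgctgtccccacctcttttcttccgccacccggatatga
Rps12: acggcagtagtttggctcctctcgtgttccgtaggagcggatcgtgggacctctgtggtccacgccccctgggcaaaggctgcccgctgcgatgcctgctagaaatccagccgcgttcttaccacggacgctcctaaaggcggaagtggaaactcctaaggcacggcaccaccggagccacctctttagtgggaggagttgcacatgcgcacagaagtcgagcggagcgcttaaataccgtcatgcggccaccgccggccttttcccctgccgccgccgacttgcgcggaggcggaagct
The letters occur once in the Rps10 window, at 2 places in the Rps7 window and not in the Rps12 window. Of 19 windows of the called ribosomal genes, 10 held the motif on either strand, as did 37 of 78 windows (47.4%) of the list and 14.9% of 32851 windows of all genes. A match is a description of the letters and not a site, and 66 of 86 listed genes had a window.

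Immediate early genes, which neurons transcribe after activity, lay on the falling side with age on ad libitum diet. All 17 tested genes had a negative change there, with a median of -0.68, but 0 passed in either edgeR fit (6 at an unadjusted p below 0.05). Arc was at log2 CPM 3.64, 5.87 and 5.67 in young and 3.97, 4.02 and 3.04 in old ad libitum mice, so young mouse 1 lay among the old mice. Over all old mice Egr4 and Junb fell in the fit with the term, by 0.98 (SE 0.25, edgeR adjusted p = 0.0263) and by 1.02 (SE 0.26, adjusted p = 0.0389), beside 2.98% of all genes. With group alone neither passed (5 genes of the list at an unadjusted p below 0.05). Neither passed without marked nuclei, at -0.92 (edgeR adjusted p = 0.0531) and -0.93 (adjusted p = 0.0571). Among stress and clock genes, Fkbp5, a cochaperone of the glucocorticoid receptor, rose by 0.57 ± 0.14 (adjusted p = 0.0223) and Per2, a period clock gene, by 0.67 ± 0.16 (adjusted p = 0.0201) over all old mice in the fit with the term, beside 1.74% of all genes. With group alone 0 genes of the glucocorticoid and clock lists passed there (4 and 7 at an unadjusted p below 0.05). Without marked nuclei Fkbp5 was at 0.46 (edgeR adjusted p = 0.074) and did not pass, while Per2 did, at 0.71 (adjusted p = 0.0172). In old against young ad libitum mice Per2 differed by only 0.21 ± 0.19 (edgeR with the term, adjusted p = 0.64), and 0 of 16 clock genes had an unadjusted p below 0.05 in either fit. The restricted mice, whose values are given below, lay above both. Over all old mice in the fit with the term, Hspa8 and Hspe1 fell among 16 chaperone genes, by 1.21 and 0.98 (edgeR adjusted p = 0.0381 for each), beside 2.98% of all genes, and 0 chaperone genes passed with group alone (5 at an unadjusted p below 0.05). In that comparison 0 of 7 tested genes of MHC class I and the interferon response passed in either fit (0 at an unadjusted p below 0.05).

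**Figure D4:**
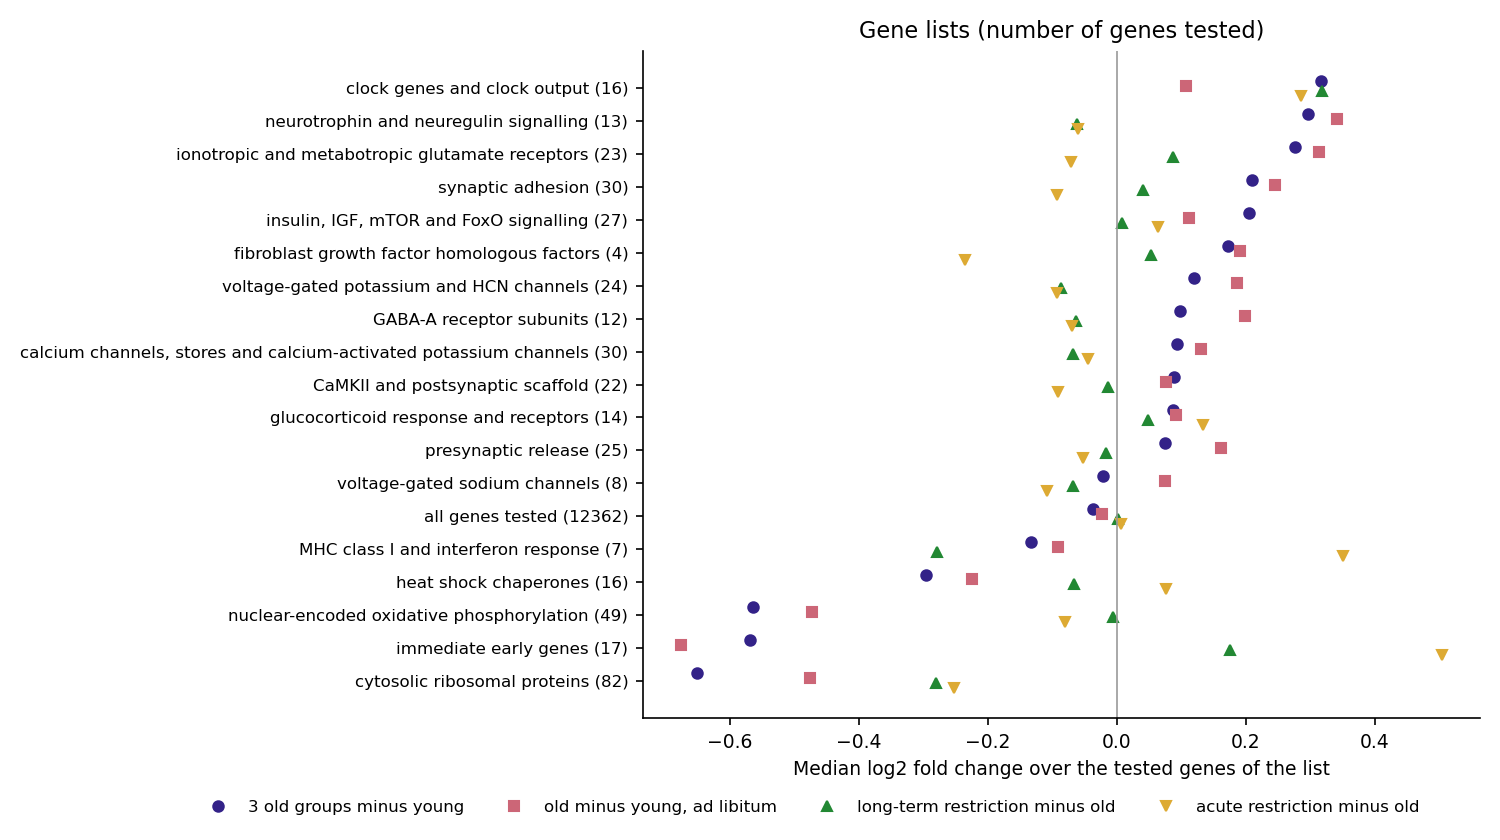
Median log2 fold change over the tested genes of each list in 4 comparisons, from the fit with group alone; the number of genes tested is in brackets. Over all old mice the cytosolic ribosomal list lies lowest, at -0.65, and the list of all genes at -0.04; the comparisons share the young or the old ad libitum mice.

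Change with age followed the length of genes. Across 12358 genes the rank correlation of the log2 fold change with the span of the gene was 0.46 in old against young ad libitum mice and 0.49 over all old mice, against 0.02 in each restriction comparison with old ad libitum mice (across genes, which are not replicates). In the fit with the term, genes that rose over all old mice had a median span of 172 kb and genes that fell 10.4 kb, against 29.5 kb for all genes. A length index per mouse, the mean log2 CPM of the 3093 longest genes minus that of the 3093 shortest, was 2.16, 2.22 and 2.44 in young mice, 2.68, 2.74 and 2.75 in old ad libitum mice, 2.66, 2.78 and 2.74 in acute and 2.69, 2.53, 3.25 and 2.81 in long-term restriction. All 10 old mice lay above the 3 young mice, with long-term mouse 3 the highest. The difference of 0.49 had p = 0.0035 in a two-sided exact permutation test, the smallest p the design allows. The 3 old ad libitum mice exceeded the 3 young mice by 0.45 (exact p = 0.1, the smallest possible). In residuals after terms for number 1 and median UMIs per nucleus, fitted without age, the difference was 0.23 (permutation p of the residuals = 0.0769). That fit gives to depth any part of age that goes with depth, so 0.23 is not an adjusted effect of age. Depth and age cannot be told apart in the 3 against 3 ad libitum mice, whose depths do not overlap. The acute mice had median UMIs of 10415 to 11096, within the range of the young mice (6782 to 11679), and indices of 2.66 to 2.78 against 2.16 to 2.44. These mice differed from the young mice in both age and diet, and the part of depth in the index was not tested between them.

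Dietary restriction was compared with ad libitum feeding in old mice. In long-term restriction 0 of 12362 genes passed in edgeR with group alone or with the term (0%; 519 genes, 4.2%, and 720 genes at an unadjusted p below 0.05), and in acute restriction 0 passed (396 genes, 3.2%, and 672 genes). DESeq2 called 0 genes in both and in the comparison of the restricted groups with each other, where edgeR also called 0 in both fits (368 genes, 2.98%, and 483 at an unadjusted p below 0.05). The groups did not overlap in 6.66% of genes in long-term, 11% in acute restriction and 4.17% between the restricted groups.

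Genes of smallest p are given as values that did not pass. Per2 was at log2 CPM 5.30, 5.50 and 4.92 in old ad libitum mice, 5.96, 6.32 and 5.78 in acute and 5.70, 6.19, 5.89 and 5.73 in long-term restriction, so neither restricted group overlapped the ad libitum mice. The differences were 0.78 ± 0.19 (SE, acute) and 0.62 ± 0.19 (long-term), each with an edgeR adjusted p of 1. Ciart, a repressor of the clock, was at 2.41, 2.56 and 1.73 in old ad libitum mice, 4.51, 3.63 and 3.19 in acute and 3.77, 3.64, 2.86 and 3.26 in long-term restriction. Its difference in acute restriction was 1.77 ± 0.44 (edgeR adjusted p = 1), and it passed without marked nuclei in the fit with the term, at 2.13 (adjusted p = 0.032), as did Mthfd1l, a mitochondrial enzyme of folate metabolism named after its value was seen, at 1.30 (adjusted p = 0.0157). Of 16 tested clock genes, 10 were positive in acute (median 0.29) and 12 in long-term restriction (median 0.32), beside medians of 0.01 and 0.00 over all genes. The 2 comparisons share the old ad libitum mice.

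In long-term restriction Snap25 was at log2 CPM 9.80, 9.70, 10.04 and 9.79 against 9.45, 9.35 and 9.15 in old ad libitum mice (0.52 ± 0.12 (SE), adjusted p = 1), and Lin7a, a scaffold of synapses and junctions, differed by 0.81 ± 0.18 (edgeR adjusted p = 0.884). Both genes were higher in marked than in other dorsal-type nuclei of 13 of 13 mice, at 1146 against 577 CPM for Snap25 and 205 against 74.7 CPM for Lin7a. Without marked nuclei the differences were 0.52 and 0.54 with group alone (edgeR adjusted p = 1 for each). Sphkap, an anchor of protein kinase A, was at 8.81, 8.71, 8.56 and 8.73 against 9.11, 9.37 and 9.41 (-0.60 ± 0.13, adjusted p = 0.884), and the difference was -0.41 without marked nuclei. Htr2a lay below the old ad libitum mice in all 4 long-term mice, by -1.07 ± 0.27 (adjusted p = 1). It was at 3.42 CPM in marked against 25.7 CPM in other dorsal-type nuclei and higher in marked nuclei of 0 of 13 mice. The difference of Htr2a without marked nuclei is not given here, and how far their share entered it was not tested. In acute restriction Lpl, lipoprotein lipase, was at 3.27, 3.82 and 3.84 against 4.70, 4.75 and 4.67 (-1.12 ± 0.28, adjusted p = 1). Ogt, the enzyme of O-GlcNAc transfer, was at 7.07, 7.41 and 7.57 against 7.80, 7.86 and 7.93 (-0.50 ± 0.13, adjusted p = 1).

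Immediate early genes were mostly positive in acute restriction, 16 of 17 with a median of 0.50, and 0 passed (3 at an unadjusted p below 0.05). Arc was at log2 CPM 4.86, 5.23 and 4.63 in acute restriction against 3.97, 4.02 and 3.04 in old ad libitum mice. In long-term restriction 13 of 17 were positive with a median of 0.18, and Arc was at 4.40, 4.80, 3.06 and 4.19. Ribosomal protein genes lay below the all-gene median in both diets, with 69 of 82 negative in acute (median -0.25) and 70 of 82 in long-term restriction (median -0.28), and 0 passed in either (5 and 6 at an unadjusted p below 0.05). For insulin, IGF, mTOR and FoxO signalling, often studied in restriction, the medians over 27 genes were 0.06 and 0.01 and 0 passed (1 at an unadjusted p below 0.05 in each).

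Whether changes were particular to dorsal-type nuclei was tested against ventral-type nuclei of the same mice, as a difference of changes with the mouse as a block. In old against young ad libitum mice 4 of 13942 genes passed (0.0287%), namely Astn2, Rgs20, Tox and Cdh20, and over all old mice 63 passed (0.452%), 36 with the more positive change on the dorsal side and 27 with the more negative. For the 3 restriction comparisons 0 genes passed in edgeR (557, 456 and 461 at an unadjusted p below 0.05 in long-term, acute and long-term minus acute), and DESeq2 was not run on this difference. Without the 4 libraries numbered 1 the calls over all old mice were 13 and those in ad libitum mice 12. The changes of single genes below are differences of mean log2 CPM, while the difference between the sides is the fitted value, so it need not equal their subtraction. Lrrtm4 changed over all old mice by 0.86 in dorsal-type and -0.15 in ventral-type nuclei, with a fitted difference of 0.92 ± 0.11 (SE, edgeR adjusted p = 0.000141). Tox, a nuclear DNA-binding protein, changed by 1.46 and 0.07 (fitted difference 1.33 ± 0.17, adjusted p = 0.00124), and Rgs20, a regulator of G protein signalling, by 1.17 and -0.14 (fitted difference 1.34 ± 0.20, adjusted p = 0.000416). On the other side Sphkap changed by -0.42 and 0.15 (fitted difference -0.60 ± 0.10, adjusted p = 0.00193) and Hpca, the calcium sensor hippocalcin, by -0.85 and -0.21 (fitted difference -0.67 ± 0.14, adjusted p = 0.0276).

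These differences were set beside the levels in marked nuclei, as a description, since both were read from the same dorsal-type nuclei. Levels were compared as mean CPM over the mice, among genes of at least 20 CPM in marked or other dorsal-type nuclei. Of the 36 genes with the more positive dorsal change 34 reached that level, and all 34 were higher in marked nuclei, beside 55.9% of 6547 genes. Of the 27 with the more negative change 24 reached it, and all 24 were lower in marked nuclei, beside 44.1%. Lrrtm4 was at 6571 CPM in marked against 653 CPM in other nuclei, and Sphkap at 145 against 660 CPM, each in the same direction in 13 of 13 mice. Without marked nuclei on either side 0 genes passed in either age comparison. Of the 63 genes, 60 then had the same direction, 45 had an unadjusted p below 0.05, and the median size of the difference went from 0.67 to 0.42. Hpca was at -0.55 ± 0.16 (edgeR unadjusted p = 0.00208, adjusted p = 0.683) and Lrrtm4 at 0.57 ± 0.48 (unadjusted p = 0.265, adjusted p = 1). Some differences were larger without marked nuclei, with a larger error: Tox went from 1.33 to 1.70 over all old mice and from 1.46 to 1.66 in ad libitum mice, and Cdh20 from 1.23 to 1.61 in ad libitum mice. Leaving out single mice gave 5, 14 and 109 calls over all old mice without young mice 1, 2 and 3 and 40 without acute mouse 1. In ad libitum mice it gave 0, 13 and 16 calls without old ad libitum mice 2, 1 and 4, 2 without young mouse 2, and 8 and 10 without acute mice 2 and 3.

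**Figure D5:**
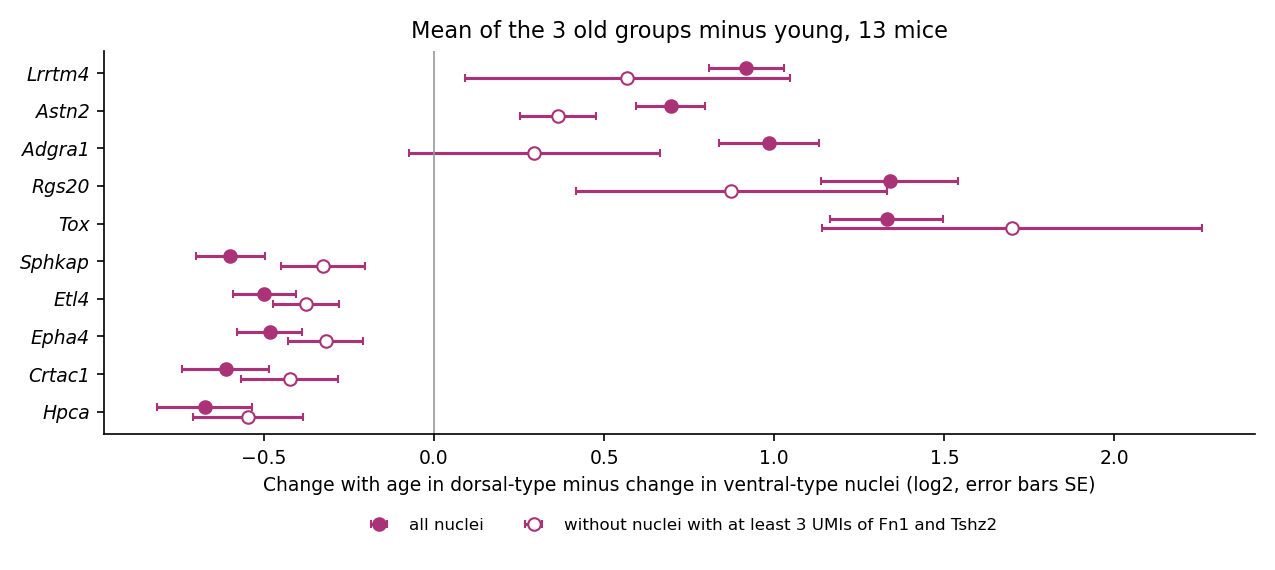
Change over all old mice in dorsal-type minus that in ventral-type nuclei (log2, points with SE) for the 10 named genes, with all nuclei (filled) and without nuclei with at least 3 UMIs of Fn1 and Tshz2 (open). Adgra1 moves from 0.99 to 0.30 and Hpca from -0.67 to -0.55.

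Markers of other cell types and of other CA1 neurons moved with some groups. The 4 CA3 genes summed to 75.2 to 85.0 CPM in young, 86.5 to 126 CPM in old ad libitum, 62.7 to 171 CPM in acute and 144 to 277 CPM in long-term mice, largely through Cpne4, which was at 224 CPM in marked and 31.5 CPM in other dorsal-type nuclei. The 6 oligodendrocyte genes summed to 52.8 to 122 CPM in young and 105 to 199 CPM in old ad libitum mice, and the 5 microglial genes reached 131 CPM in young mouse 2 against a median of 36.4 CPM over the mice. The 5 genes listed for ventral CA1 summed to 195 to 225 CPM in young, 164 to 295 CPM in old ad libitum, 191 to 373 CPM in acute and 306 to 438 CPM in long-term mice, so the long-term mice did not overlap the young mice. Most of that sum was Etv1, and Htr2c is a member of that list. Ndst4 and Calb1 together, mostly Ndst4, summed to 376 to 527 CPM in young and 581 to 672 CPM in old ad libitum mice. The sum was 610 to 812 CPM in acute and 447 to 879 CPM in long-term mice, so the long-term mice overlapped the young mice. Calb1 alone was at 35.9, 18.1 and 24.4 CPM in young and 15.3, 19.2 and 17.2 CPM in old ad libitum mice. No gene of these lists was at 0 in every mouse. Their part in the age results was not tested.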

How the data were processed

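Nuclei of frozen hippocampus were sorted by Hoechst and sequenced as droplet 3' libraries, per the labels' protocols. The deposited files hold UMI counts per gene and barcode, made with Cell Ranger 4.0.0 on mm10, per the submitters' processing notes. Counting of introns and strand and removal of free RNA or doublets are not given in the sources used here. Counts of the selected nuclei were summed per mouse (332995 to 4390794 UMIs, 29949243 in all), because nuclei of a mouse are not replicates. Groups came from the sample labels. The sums of all 13 mice were fitted together with edgeR 4.0.16 (TMM factors, filterByExpr, robust quasi-likelihood test, Benjamini-Hochberg adjustment over 12362 genes, threshold 0.05), with group alone and with a term for libraries numbered 1. The 12 rule genes were left out of the adjustment. DESeq2 1.42.0 was an alternative. Log2 CPM values carry a prior count of 2, and coordinates are of GRCm38 (GENCODE M21). Shares and the length index were tested by exact permutation in scipy 1.17.1 under Python 3.11.15. High Scrublet scores (scanpy 1.11.5) marked doublets, which were kept except in an alternative. The edgeR fits of old against young ad libitum mice, with and without the term, and of the dorsal-type against ventral-type difference in ageing were tested on simulated data. Other alternatives were other filters, scalings, memberships and left-out libraries. Named genes are the 12 of smallest p per direction among calls, or 5 per direction where fewer than 3 genes passed, called members of the gene lists with up to 4 others, and the 10 largest differences in level per direction. The nuclei and gene lists were chosen with earlier results of these data known. Comparisons without Fn1 and Tshz2 marked nuclei were added after seeing the data. Some genes that the naming rule covers are not reported here.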

Additional observations from a re-analysis of the deposited data

Results flagged for a closer look

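In the 4 long-term mice 124 sets of values were examined. They were log2 CPM values of genes, the dorsal-type shares, the share of marked nuclei, the median UMIs and the length index. In 7 sets, all of them log2 CPM values of a gene, a mouse lay far from the other 3 by the gap in relation to the range. Chance alone marks about 1 in 20. Klhl32 was at 7.42 in long-term mouse 1 against 7.17 to 7.19 in the others. Vmp1 was at 6.72 in mouse 4 against 6.99 to 7.04, and Cox7a2 at 3.64 in mouse 4 against 4.19 to 4.24. Eif1b was at 4.40 in mouse 2 against 3.52 to 3.67, and Scn1a at 7.89 in mouse 2 against 8.27 to 8.31. Egr4 was at 3.61 in mouse 1 against 2.63 to 2.74, and Rpl11 at 3.06 in mouse 3 against 4.11 to 4.19.

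The change in dorsal-type minus that in ventral-type nuclei passed the interaction test (edgeR, mouse as a block) for these named genes. In old against young ad libitum mice it was 0.80 for Astn2, 1.41 for Rgs20, 1.46 for Tox and 1.23 for Cdh20. Over all old mice it was 0.92 for Lrrtm4, 0.70 for Astn2, 0.99 for Adgra1, 1.34 for Rgs20 and 1.33 for Tox. It was -0.60 for Sphkap, -0.50 for Etl4, -0.48 for Epha4, -0.61 for Crtac1 and -0.67 for Hpca. None of these passed without the nuclei marked by Fn1 and Tshz2, where Astn2 was at 0.60 (edgeR adjusted p = 0.712) in ad libitum mice and 0.36 (adjusted p = 0.708) over all old mice.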

How the results depend on the processing

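With group alone, old against young ad libitum mice gave 79 calls with no filter on low counts, 48 in DESeq2, 128 with the term for libraries numbered 1, 326 without those 4 libraries, 2 without doublet-scored nuclei, 1 without doublet-scored and marked nuclei, and 0 to 112 leaving out 1 library. All old mice gave 583 with the term, 410 with no filter, 290 in DESeq2, 344 without libraries numbered 1, 0 with the depth covariate, 4 with the gene span trend removed, 25 without doublets, 30 with a lead of 2 UMIs, 31 with nuclei of at least 5000 UMIs, 33 without marked nuclei, 0 without young mouse 2 and long-term mouse 4, and 0 to 221 leaving out 1 library. Long-term restriction gave 1 with no filter, as did long-term minus acute.

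With the term, old against young ad libitum mice gave 75 with the span trend removed, 0 with depth, 589 with no filter, 217 without marked nuclei, 202 without marked and doublet-scored nuclei, 46 without young mouse 2 and long-term mouse 4, and 5 to 267 leaving out 1 library. All old mice gave 188 with the span trend removed, 0 with depth, 290 with a lead of 2 UMIs, 1096 with no filter, 130 without both small libraries and 149 to 650 leaving out 1 library. Long-term restriction gave 2 with the span trend removed, 33 with no filter and 0 to 2 leaving out 1 library. Acute restriction gave 1 with at least 8 UMIs of the CA1 genes, 38 with no filter, 2 without marked nuclei, 3 without marked and doublet-scored nuclei, and 0 to 1 leaving out 1 library. Long-term minus acute gave 25 with no filter and 0 to 2 leaving out 1 library.

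The difference between dorsal-type and ventral-type nuclei gave, without libraries numbered 1, 12 calls in ad libitum mice, 13 over all old mice, 2 in long-term restriction and 4 in long-term minus acute. Without marked nuclei it gave 0 in both age comparisons. Leaving out 1 mouse gave 0 to 16, 5 to 109, 0, 0 to 1 and 0 to 1 calls in ad libitum ageing, all old mice, long-term, acute and long-term minus acute. The F of the shares ran from 0.183 to 1.49 of retained barcodes and from 1.40 to 4.09 of dorsal-type plus ventral-type nuclei. The log2 odds of retained barcodes changed sign in old against young ad libitum mice from 0.32 to -0.18 with at least 5000 UMIs, and leaving out 1 library ran from -0.53 (without young mouse 2) to 0.88, and in acute restriction from -0.64 to 0.46 (without acute mouse 3). Those of dorsal-type plus ventral-type nuclei ran in acute restriction from -0.62 to 0.24 (without old ad libitum mouse 1). The length index difference was 0.434 to 0.571 leaving out 1 library (3 against 3 mice, 0.396 to 0.533). It was 0.23 in residuals after number and depth, fitted without age (permutation p of the residuals = 0.0769). Plcb4 in ad libitum ageing was at -0.00505 and -0.0294 (with the term) without marked and doublet-scored nuclei, and C130073E24Rik in long-term minus acute at -0.11 and -0.16 with a lead of 2 UMIs. The causes were not tested, and small sums limit the precision of young mouse 2 and long-term mouse 4.

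Replicate numbers other than 1 did not pair the samples: their 10 pairs had correlations of -0.06 to 0.17, and the 6 pairs numbered 1 had 0.25 to 0.54. With the replicate block, old against young ad libitum mice gave 139 calls (66 higher, 73 lower) and all old mice 704 (326 higher, 378 lower), against 23 higher and 105 lower, and 215 and 368, with the term for libraries numbered 1.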

Other observations

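Some restriction differences passed only in alternatives, in the fit with the term for libraries numbered 1, and are named after their values were seen. In long-term restriction 4930567K20Rik, a noncoding RNA, was higher by 1.78 ± 0.28 (SE) without long-term mouse 3 (edgeR adjusted p = 0.00833), and Lin7a by 0.81 ± 0.15 with the gene span trend removed (adjusted p = 0.0444). In acute restriction Nxph1, a secreted ligand of neurexins, was lower without acute mouse 3, at -2.64 ± 0.39 (adjusted p = 0.00732). Mthfd1l was higher by 1.14 ± 0.20 in nuclei with at least 8 UMIs of the CA1 genes (adjusted p = 0.0278). Between the restricted groups without long-term mouse 1, Chrm2, a muscarinic receptor, was higher in long-term mice by 3.37 ± 0.57 (adjusted p = 0.0388).

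Of 7 tested genes of MHC class I and the interferon response, 6 had a positive difference in acute restriction (median 0.35) and 2 in long-term restriction (median -0.28), and 0 passed in either edgeR fit (1 and 0 at an unadjusted p below 0.05 with group alone). DESeq2 called 0 genes in either comparison.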
